A study of Drosophila melanogaster with 12 samples.

Results

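Cytosolic ribosomal protein genes were represented by 37 probe sets, 1 for each of 37 genes, out of 14010 on the array. They were chosen by name alone: a single annotated gene symbol beginning with RpL or RpS and a digit, or with RpLP. The symbols sta and sop, which name 2 further proteins of the small subunit, were carried by 0 probe sets of the annotation used here, and 2 probe sets that listed a ribosomal gene among several symbols were not used. Of the 37, 27 encoded the standard proteins of the cytosolic ribosome (called core here, 16 of the large and 11 of the small subunit), 7 were second copies of such genes (RpL10Aa, RpL22-like, RpL37-2, RpS5b, RpS10a, RpS19b and RpS28a), and 3 were relatives named RpLP0-like, RpL7-like and RpL24-like. Ribosomes contain a small subunit, which reads the mRNA, and a large subunit, which joins amino acids and carries a flexible stalk that recruits translation factors. Their proteins are needed in matched amounts, and their mRNAs are among the most abundant of any growing cell. Because these probe sets sat at the top of the intensity range, what could be said of them depended on how the arrays were scaled, and each result below names its scaling.

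RNA came from D. mel-2 cells, a Drosophila melanogaster line, after RNA interference (RNAi) with a non-specific sequence, called control here, or against U2AF50. That protein is the larger partner of U2AF, which binds near the end of introns before splicing. Cytoplasm and nucleus were separated, in part of the samples by a hypotonic lysis according to the labels, and total RNA of each fraction was hybridised to a 1-colour Affymetrix array. Each of the 4 groups (control cytoplasm, control nucleus, U2AF50 RNAi cytoplasm and U2AF50 RNAi nucleus) had 3 arrays. Whether the 3 arrays of a group stem from different cultures is not in the labels. The p-values then rest on variation among arrays alone, which may be technical. No untreated cells were among the groups.

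As a check of the labels, U2af50 had cytoplasmic intensities of 1030, 1327 and 1143 after its own RNAi against 2474, 5606 and 4751 in the control, with no overlap. Nuclear intensities of U2af50 were 2718, 1738 and 1678 after RNAi and 1701, 1710 and 1589 in the control, and these ranges overlapped. Blood cell genes typical of such lines were present, with the mean signal of Pxn at the 89.9th, srp at the 92.5th and Hml at the 68.9th percentile of all probe sets, whereas the phagocyte receptor gene NimC1 stood at the 3.4th. Most were far brighter in the nuclear fraction. Control means in cytoplasm and nucleus were 141 and 4671 for Hml, 651 and 11692 for Pxn, and 258 and 5363 for eater. They were 134 and 9742 for vkg and 946 and 13606 for Col4a1, but 2998 and 3113 for srp and 102 and 72 for NimC1. The purity of the fractions was not tested. The neuronal genes elav and nSyb lay at the 36.4th and 15.7th percentile, the glial gene repo at the 40.3rd and the germ line genes vas and bam at the 22.0th and 19.9th. Pairs of arrays within a group correlated with r between 0.858 and 0.961 over all probe sets.

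The mRNAs of the core members were among the strongest signals on every array. Their median deposited intensity was 146061, 86651 and 77400 on the 3 arrays of the control cytoplasm, 53965, 59867 and 52058 in the control nucleus, 58859, 60171 and 46361 in the U2AF50 RNAi cytoplasm and 62496, 61393 and 47091 in the U2AF50 RNAi nucleus. The control cytoplasm therefore lay above the other 3 groups, none of whose arrays reached its lowest value. Of the 50 brightest probe sets, 19, 17 and 18 were ribosomal protein members in the control cytoplasm, 16, 18 and 14 in the U2AF50 RNAi cytoplasm, 15, 15 and 13 in the control nucleus and 14, 15 and 12 in the U2AF50 RNAi nucleus. Those counts overlapped between the treatments. The median rank of the core members, counted from the brightest probe set down, was 31, 31 and 34 in the control cytoplasm and 41, 39 and 48 in the U2AF50 RNAi cytoplasm, without overlap. Ranks do not depend on the scaling of an array. In the nucleus the median ranks were 44, 48 and 51 in the control and 50, 45 and 61 after U2AF50 RNAi, and these overlapped.

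**Figure D1:**
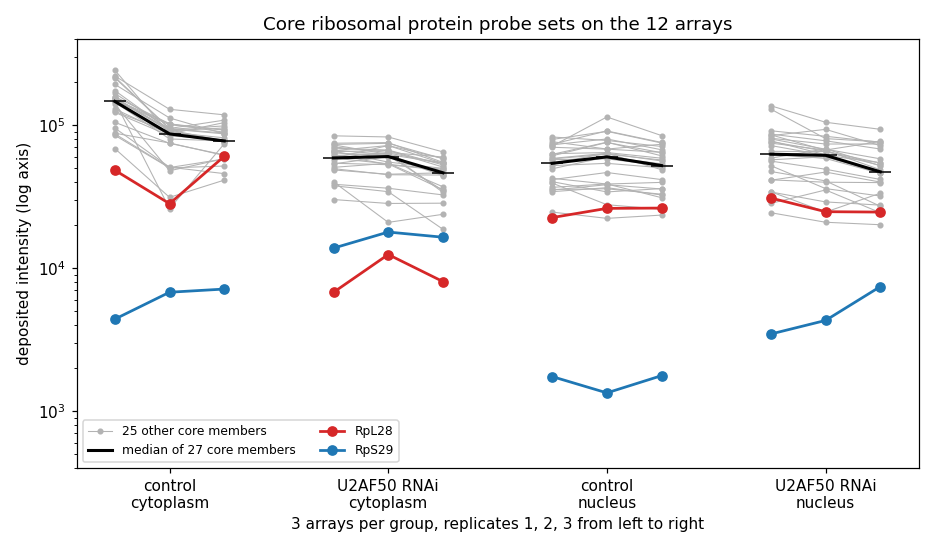
Deposited intensities (log axis) of the 27 core members on the 12 arrays, 3 per group. Grey points are 25 members, the black line with dashes is the median of all 27, and lines join the arrays of 1 group only to guide the eye. RpL28 drops out of the bright band in the U2AF50 RNAi cytoplasm, and RpS29 lies below the band on every array and is highest there.

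Replicate 1 of the control cytoplasm stood apart from the other arrays of its group. It held the highest of the 12 values for 25 of the 27 core members, and its intensity was 1.68 times the mean of replicates 2 and 3 for the median core member (range 0.63 to 2.93). Its GAPDH 3' to 5' ratio, a measure of RNA integrity, was 7.91 against 4.47 and 3.89, and its spiked hybridisation controls averaged 14.65 on the log2 scale against 13.37 and 12.46. Over the groups, the GAPDH ratio was 5.42 ± 2.17 (SD, n = 3) in the control cytoplasm and 2.90 ± 0.66 in the U2AF50 RNAi cytoplasm, and the hybridisation controls were 13.49 ± 1.10 and 12.34 ± 0.21. In the nucleus the GAPDH ratio was 6.24 ± 1.76 in the control and 6.19 ± 2.07 after U2AF50 RNAi, and the hybridisation controls were 13.77 ± 0.44 and 14.21 ± 0.89. Both means were thus lower after U2AF50 RNAi in the cytoplasm, and they lay further apart between the fractions of U2AF50 RNAi cells. The GAPDH ratios of the U2AF50 RNAi cytoplasm, 2.71, 3.63 and 2.36, did not overlap those of the control cytoplasm. Its hybridisation controls, 12.09, 12.47 and 12.45, did overlap those of the control cytoplasm. Results that rest on replicate 1 are given with and without it below.

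The members differed widely in level. The 25 core members other than RpL28 and RpS29 had deposited intensities between 18678 and 241458 over all arrays. RpL28, a protein of the large subunit, lay at the 99.2nd percentile of all probe sets by mean signal, and RpS29, a small zinc-binding protein of the small subunit, at the 96.3rd. The 3 relatives followed at the 90.8th (RpLP0-like), 92.4th (RpL7-like) and 94.9th (RpL24-like). Yeast counterparts of these 3 act in the assembly of the large subunit and are not parts of the finished ribosome. Of the second copies, RpL37-2 lay at the 85.0th, RpS19b at the 75.4th and RpS5b at the 74.7th percentile. RpS10a (39.0th), RpS28a (29.3rd), RpL22-like (20.6th) and RpL10Aa (11.5th) lay below the filter on low signals, set at the 40th percentile, and were not tested. RpL10Aa, for instance, had intensities from 9.0 to 290.0, while its partner RpL10Ab ranged from 50865 to 152512. RpS28a ranged from 44.8 to 648.4 and its partner RpS28b from 33882 to 154177. Several second copies, among them RpS5b, RpS19b and RpL22-like, are known in flies for expression in the germ line. Near-identical copies can share probes, so values of a pair are not fully separate.

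The first comparison set the nucleus against the cytoplasm of control cells. Differences were tested with limma over all 12 arrays after quantile normalisation, which gives every array the same distribution of values, and a Benjamini-Hochberg adjusted p under 0.05 over the 8379 probe sets tested was the threshold. Each fold is on the scale of log2(intensity + 94.7) and compares shares of the signal of each fraction, not molecules per cell, so less RNA per cell and fewer cells with the RNA cannot be told apart. Of the 33 members tested, 16 were lower in the nucleus and 1 higher, or 48.5% and 3.03%, where 25.2% of all tested probe sets were lower and 16.9% higher. With the intensities as deposited, 25 were lower and 0 higher, against 28.4% lower and 16.5% higher of all probe sets. The median member difference was -0.36 on the log2 scale after quantile normalisation and -0.86 as deposited, beside -0.27 and -0.34 for all tested probe sets. On the deposited scale all 3 nuclear arrays lay below all 3 cytoplasmic arrays for 27 of the 33 members, which held for 34.5% of all probe sets.

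RpS29 and RpS12, both of the small subunit, gave the largest differences among the core members after quantile normalisation. RpS29 had deposited intensities of 4399, 6779 and 7133 in the control cytoplasm and 1744, 1342 and 1770 in the control nucleus, without overlap. It was 3.49-fold lower in the nucleus (log2 difference -1.80, SE 0.22, limma adjusted p = 3.06e-06, n = 3 per group). The RpS29 call held in 28 of 29 alternatives. It was lost with each array centred on the median of the members (-0.72, adjusted p = 0.1222). RpS12, a small subunit protein known in flies for its part in the competition between neighbouring cells, had 87664, 74867 and 61261 in the cytoplasm and 24619, 22253 and 23462 in the nucleus. It was 2.62-fold lower (-1.39, SE 0.14, adjusted p = 1.44e-07) and the call held in all 29 alternatives. The median over the 11 core proteins of the small subunit was -0.32, with 5 lower and 0 higher, and over the 16 of the large subunit -0.13, with 6 lower and 1 higher.

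All 3 assembly-type relatives were lower in the nucleus. RpL24-like had 6277, 7320 and 6560 in the control cytoplasm and 2434, 1955 and 1984 in the nucleus. Its difference of -1.62 (SE 0.15, adjusted p = 6.96e-08) was 3.07-fold. RpLP0-like followed at -1.29 (SE 0.21, adjusted p = 5.49e-05), and RpL7-like was 2.01-fold lower (SE 0.20 on the log2 scale, adjusted p = 5.11e-04). Among the second copies, RpS19b gave the largest difference of the tested members, 3.99-fold (SE 0.50 on the log2 scale, adjusted p = 0.0036), but its nuclear intensities of 462, 1146 and 83 scattered and its cytoplasmic ones were 2277, 2703 and 1150. RpL37-2 had -1.12 (SE 0.24) and RpS5b -0.18 (adjusted p = 0.7441). The calls of RpL24-like, RpLP0-like, RpS19b and RpL37-2 each held in 28 of 29 alternatives. With each array centred on the median of the members they were lost. The values were then -0.51 (adjusted p = 0.2273), -0.22 (adjusted p = 0.6554), -0.92 (adjusted p = 0.1269) and -0.04 (adjusted p = 0.9407).

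At the other end lay RpL39, a very small protein that lines the exit tunnel of the large subunit. It was the 1 member higher in the nucleus, by 0.37 (SE 0.14, adjusted p = 0.035), yet the sign turned to -0.04 as deposited and to -0.02 with arrays centred on their medians. Its intensities were 68388, 31212 and 41180 in the cytoplasm and 41514, 46558 and 41545 in the nucleus. The groups overlapped on that scale. Of the stalk proteins, the scaffold RpLP0 was lower (-0.62, SE 0.14, adjusted p = 0.0012), while its partners RpLP1 (-0.05, adjusted p = 0.8263) and RpLP2 (-0.13, adjusted p = 0.4225) did not pass the test. As deposited, RpLP2 was lower as well (-0.80, adjusted p = 0.0088), and RpLP1 was not (-0.56, adjusted p = 0.1439). The 2 core genes that encode a ribosomal protein fused to ubiquitin, RpL40 and RpS27A, were lower at -0.44 (SE 0.16) and -0.64 (SE 0.19).

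Other genes of the translation machinery were counted in the same comparison. After quantile normalisation 27 of 32 probe sets of translation factors were lower and 0 higher, with a median of -1.23, led by pAbp, the poly(A)-binding protein, at -2.04 (SE 0.23) and eIF1 at -2.01 (SE 0.12). Of 66 probe sets for mitochondrial ribosomal proteins, 55 were lower and 0 higher (median -1.25). Of 30 for ribosome biogenesis factors, 19 were lower and 1, the pseudouridine synthase gene Nop60B at 1.81 (SE 0.44), was higher (median -1.11). The lower ones were led by eIF6 at -3.45 (SE 0.21), Fib at -1.89 (SE 0.16) and Nlp at -1.82 (SE 0.15). The medians of these lists moved by less than 0.1 between quantile normalisation and the deposited scale, where they were -1.20, -1.32 and -1.13, whereas that of the cytosolic ribosomal proteins moved from -0.36 to -0.86. No test of the difference between lists was made.

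The same comparison in U2AF50 RNAi cells again gave 16 members lower in the nucleus, and 5 higher, where 30.9% of all tested probe sets were lower and 17.9% higher. As deposited, 9 were lower and 5 higher, with 30.2% and 21.2% of all probe sets. The member median was -0.27 after quantile normalisation and -0.07 as deposited, beside -0.29 and -0.15 for all tested probe sets, and that of the 27 core members changed sign between the scalings, from -0.23 to 0.09. The quality measures moved with this comparison. After quantile normalisation the member median was -0.53 with the hybridisation controls as a covariate (15 lower and 4 higher) and -0.46 with the GAPDH ratio (14 lower and 4 higher). The share of all probe sets called with a covariate was not counted. Of the members lower in the nucleus after quantile normalisation, 13 were lower under both treatments. That number was 9 as deposited, 17 with array medians and 18 with quantiles within each fraction. The share of all tested probe sets lower under both treatments was not counted. The control and U2AF50 RNAi differences come from separate arrays. Across the 33 members they correlated with r = 0.69 and rho = 0.73, given as a description, since the members share arrays.

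RpS29 and RpS12 were lowest among core members here too. RpS29 had 13789, 17857 and 16433 in the U2AF50 RNAi cytoplasm and 3461, 4305 and 7418 in the nucleus, a difference of -1.76 (SE 0.22, adjusted p = 4.39e-06). RpS12 had 50591, 53997 and 37015 against 24367, 20909 and 20088, a difference of -1.35 (SE 0.14, adjusted p = 2.48e-07). Neither pair of groups overlapped. RpLP0 (-1.15, SE 0.14), RpLP0-like (-1.45, SE 0.21), RpS19b (-1.49, SE 0.50) and RpL24-like (-0.98, SE 0.15) were lower as well. The RpS19b call held in 23 of 29 alternatives, and those of RpLP0, RpLP0-like and RpL24-like held in all 29. RpS19b lost its call with the GAPDH ratio as a covariate (-1.31, adjusted p = 0.1880). It was also lost without replicate 2 or 3 of either fraction of U2AF50 RNAi cells. After quantile normalisation RpS15, RpLP2 and RpL36A passed the test under U2AF50 RNAi and not in the control, but as deposited all 3 passed in the control and none under U2AF50 RNAi, and with array medians all 3 passed under both. Their interactions with the treatment did not pass after quantile normalisation (adjusted p = 0.1847, 0.3494 and 0.4510).

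The 5 members higher in the nucleus of U2AF50 RNAi cells were 4 proteins of the large subunit and 1 of the small. RpL28 led with 30856, 24780 and 24626 in the nucleus against 6773, 12439 and 8052 in the cytoplasm, 2.90-fold higher (log2 difference 1.54, SE 0.22, adjusted p = 1.75e-05). RpL17, a protein at the tunnel exit, had 58698, 68129 and 51868 against 40058, 20862 and 23758, a difference of 1.08 (SE 0.20, adjusted p = 2.21e-04). RpS26, which lies where the mRNA leaves the small subunit, had 136213, 104530 and 93292 against 58778, 53512 and 35269, a difference of 0.84 (SE 0.16, adjusted p = 3.34e-04). All 3 nuclear arrays lay above all 3 cytoplasmic ones for each of these 3 genes. RpL39 (0.84, SE 0.14) and RpL32 (0.46, SE 0.17, adjusted p = 0.0319) were the other 2. RpL32, long used in flies as a reference gene under the name rp49, kept its call in 17 of 29 alternatives. It had 0.32 with arrays centred on their medians (adjusted p = 0.2382), 0.49 with the hybridisation controls as a covariate (adjusted p = 0.1650) and 0.33 with the GAPDH ratio (adjusted p = 0.3187). The call of RpL28 held in all 29 alternatives, and those of RpL17, RpS26 and RpL39 held in 27, being lost as deposited with either covariate.

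**Figure D2:**
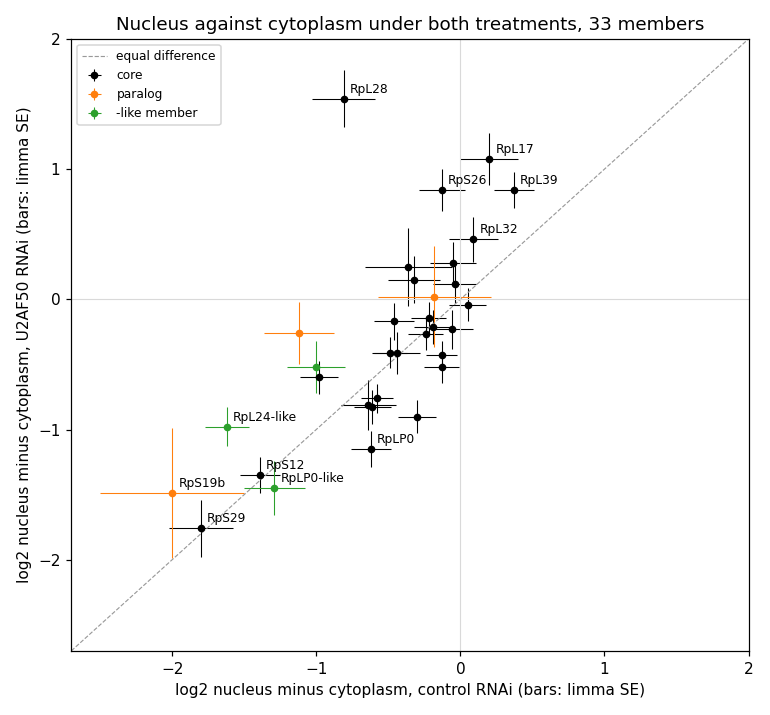
Log2 difference of nucleus minus cytoplasm after quantile normalisation for the 33 tested members, control on the horizontal and U2AF50 RNAi on the vertical axis, with limma standard errors (3 arrays per group). Most members lie near the dashed line of equal difference, and RpL28 lies far above it, at -0.81 in the control and 1.54 after U2AF50 RNAi.

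The third comparison, U2AF50 RNAi against control in the cytoplasm, asked which ribosomal protein mRNAs moved with depletion. After quantile normalisation 3 members fell and 1 rose of 33, or 9.09% and 3.03%, where 0.800% of all tested probe sets fell and 1.77% rose. The member median was -0.04, beside 0.04 for all tested probe sets. With the intensities as deposited, 13 fell and 1 rose, against 1.11% and 1.87% of all probe sets, and the median was -0.76 beside -0.02. All 3 U2AF50 RNAi arrays then lay below all 3 control arrays for 25 of the 33 members, which held for 14.3% of all probe sets. With arrays centred on their medians, 10 fell and 1 rose, and the median was -0.53 beside 0.21. The share of all probe sets called was not counted on that scale.

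The spread of the deposited values shows where the scalings part. The brightest probe set other than a control reached 269041, 128742 and 117805 in the control cytoplasm and 84023, 85067 and 66739 in the U2AF50 RNAi cytoplasm, while the 99th percentile was 22606, 21597 and 21437 against 21745, 21462 and 20355. Quantile normalisation sets these upper ends equal by construction. Of the bright control transcripts on the array, the 3' probe set of the translation factor eIF-4a had 108051, 105960 and 70093 in the control cytoplasm and 76707, 80420 and 53902 after U2AF50 RNAi, and these overlapped. The middle eIF-4a probe set had 58746, 61737 and 54836 against 53887, 45184 and 42321, without overlap. The middle actin probe set had 60452, 58924 and 57633 against 54877, 55672 and 44338, also without overlap, and the middle GAPDH probe set, which overlapped, 35312, 37495 and 33571 against 40379, 44596 and 30704. The 3' actin probe set had 48121, 48198 and 45646 against 47076, 45385 and 45126, which overlapped. The 3' GAPDH probe set overlapped too, with 55112, 42742 and 44901 against 43680, 60046 and 43010. The fall of the members on the deposited scale rests in part on replicate 1 of the control cytoplasm. Without it, 4 members fell and 1 rose as deposited, and the median was -0.51. With or without it, 24 of the 27 core members had all 3 U2AF50 RNAi arrays below every control array used. Leaving out a control array cannot lower that count, so the count cannot show how much rests on replicate 1. With the hybridisation controls as a covariate the deposited median was -0.48 (1 fell and 1 rose), and with the GAPDH ratio -0.38 (1 fell and 0 rose). What part these measures had in the result was not otherwise tested.

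RpL28 fell under each of these scalings. Its deposited intensities were 48290, 28190 and 60395 in the control cytoplasm and 6773, 12439 and 8052 after U2AF50 RNAi. The highest depleted value lay below the lowest control value. The fall was 4.48-fold after quantile normalisation (log2 difference -2.16, SE 0.22, limma adjusted p = 2.59e-05, n = 3 per group) and 4.91-fold as deposited (-2.29, SE 0.25). With each array centred on the median of the members it was -1.43, which gives the fall relative to the other ribosomal proteins. The call held in all 29 alternatives, between -2.44 and -1.43, and without replicate 1 of the control cytoplasm the value was -2.09.

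RpS29 went the other way. It had 4399, 6779 and 7133 in the control cytoplasm and 13789, 17857 and 16433 after U2AF50 RNAi, so that every depleted array lay above every control. The rise was 2.85-fold (1.51, SE 0.22, adjusted p = 0.0012), 2.64-fold as deposited (1.40, SE 0.24), and 2.26 on the log2 scale when centred on the members. The call held in 27 of 29 alternatives. With the GAPDH ratio as a covariate it did not pass (1.21, adjusted p = 0.0767).

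RpS26 and RpL17 also fell after quantile normalisation. RpS26 had 216543, 94608 and 108123 in the control cytoplasm and 58778, 53512 and 35269 after U2AF50 RNAi, a difference of -0.81 (SE 0.16, adjusted p = 0.0138). RpL17 had 139596, 47870 and 58133 against 40058, 20862 and 23758, a difference of -0.81 (SE 0.20, adjusted p = 0.0383). The call of RpS26 held in 21 of 29 alternatives and that of RpL17 in 13, and both were lost with either covariate. The RpL17 groups overlapped after quantile normalisation. On the deposited scale neither pair of groups overlapped, and the differences were -1.44 and -1.43. Without replicate 1 of the control cytoplasm both were also lost after quantile normalisation (RpS26 -0.73, adjusted p = 0.0628, and RpL17 -0.58, adjusted p = 0.2176). The RpS26 call was also lost without U2AF50 RNAi cytoplasm replicate 3, and that of RpL17 without replicate 3 of the control cytoplasm, replicate 2 or 3 of the U2AF50 RNAi cytoplasm or any 1 array of the control nucleus. As deposited without replicate 1 of the control cytoplasm, RpS26 passed at -1.07 (adjusted p = 0.0212) and RpL17 did not at -0.96 (adjusted p = 0.0513).

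**Figure D3:**
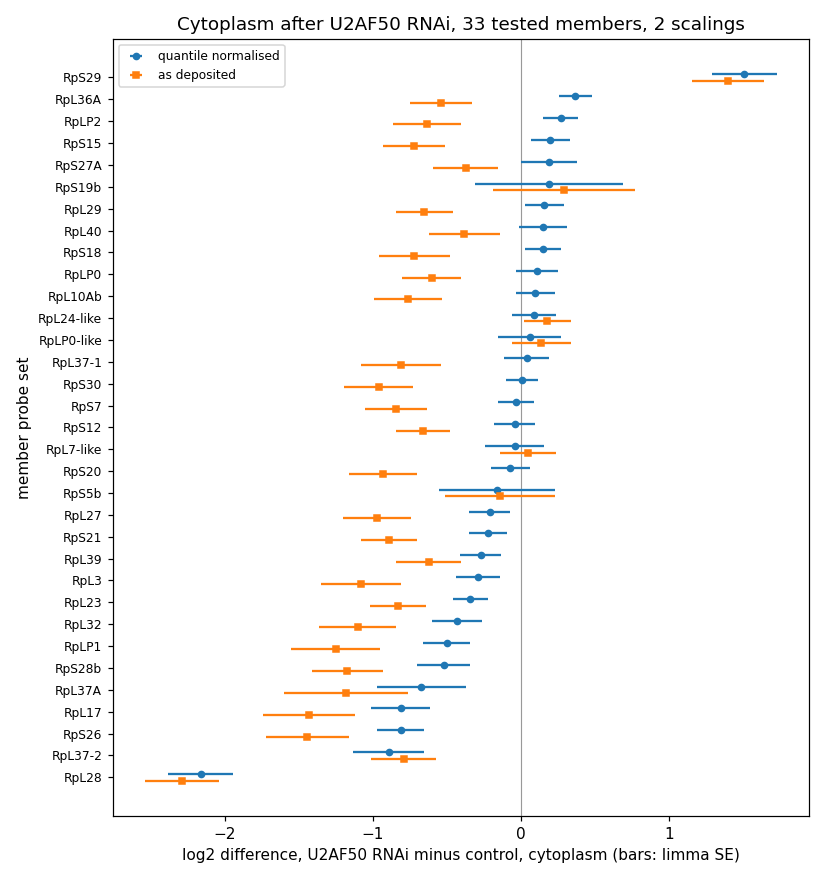
Log2 difference of U2AF50 RNAi minus control in the cytoplasm for the 33 tested members, with limma standard errors, after quantile normalisation (circles) and as deposited (squares). Most core members lie near 0 in the first scaling and below 0 in the second, while RpL28 (-2.16 and -2.29) and RpS29 (1.51 and 1.40) hold their places.

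The remaining core members shifted together between the scalings. RpLP1, for example, had a difference of -0.50 (adjusted p = 0.1221) after quantile normalisation and -1.25 (adjusted p = 0.0293) as deposited, and RpS30, whose mammalian counterpart is made as a fusion with a ubiquitin-like protein, 0.01 (adjusted p = 0.9841) and -0.96 (adjusted p = 0.0316). RpL40 (0.15 and -0.38) and RpS27A (0.19 and -0.37) passed the test under neither. The stalk scaffold RpLP0 had 0.11 and -0.60 and its partner RpLP2 0.27 and -0.63, and neither passed under either scaling. With each array centred on the median of the members, 4 members rose, of which 1 was core, and 2 fell. The median of all tested probe sets was then 0.84, beside 0.10 for the members, so rises on that scale are not particular to the members. The 3 assembly-type relatives, which lie lower in the intensity range, moved little between quantile normalisation and the deposited scale. RpL24-like had 0.09 and 0.18, RpLP0-like 0.06 and 0.14, and RpL7-like -0.04 and 0.05. Of the second copies, RpL37-2 had -0.89 (adjusted p = 0.0592) and -0.79 (adjusted p = 0.0627), with 4538, 2401 and 2794 in the control cytoplasm and 1920, 1880 and 1520 after U2AF50 RNAi.

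Few probe sets of the other translation lists passed the test in the cytoplasm. After quantile normalisation translation factors had 2 of 32 probe sets higher and 0 lower, where 1.77% of all tested probe sets rose and 0.800% fell. The 2 were eEF1delta (0.69, SE 0.17, limma adjusted p = 0.0373) and eIF3b (0.55, SE 0.14, adjusted p = 0.0457). As deposited, 0 translation factors were higher and 0 lower. Their median was 0.13 after quantile normalisation and 0.03 as deposited. Mitochondrial ribosomal proteins had 0 of 66 called and medians of -0.11 and -0.04, both below those of all tested probe sets (0.04 and -0.02), and ribosome biogenesis genes 1 of 30 higher, Nop60B (3.07, SE 0.44), and 1 lower, the histone chaperone gene Nlp (-0.85, SE 0.15), with medians of 0.10 and 0.13.

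In the nucleus, U2AF50 RNAi against control gave 2 members higher and 0 lower of 33, where 1.58% of all tested probe sets were higher and 1.83% lower. As deposited the counts were the same, with 1.59% and 1.84%. The median was 0.01 and, as deposited, 0.07, beside -0.05 and 0.02 for all tested probe sets. At an unadjusted limma p under 0.05 there were 6 members after quantile normalisation and 3 as deposited. The share of all tested probe sets at that threshold was not counted, so no excess can be read from these numbers. RpS29 rose from 1744, 1342 and 1770 to 3461, 4305 and 7418, without overlap, by 2.93-fold (log2 difference 1.55, SE 0.22, adjusted p = 6.41e-04). Centred on the members, the value was 1.38 and did not pass (adjusted p = 0.0814). RpL24-like rose from 2434, 1955 and 1984 to 3114, 3374 and 3834, by 0.73 (SE 0.15, adjusted p = 0.0116), and kept its call in 23 of 29 alternatives. The RpL24-like call was lost with arrays centred on their medians (0.51, adjusted p = 0.1609) or on those of the members (0.52, adjusted p = 0.6655). It was also lost without the intensity trend, with only the 2 groups compared, and in the fits without control nucleus replicate 2 or 3.

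RpL28 in the nucleus had 22545, 26133 and 26266 in the control and 30856, 24780 and 24626 after U2AF50 RNAi. These ranges overlapped, and the difference of 0.18 (SE 0.22, adjusted p = 0.7382) had a 95% interval from -0.28 to 0.65. RpS26 (0.16, adjusted p = 0.6841) and RpL17 (0.07, adjusted p = 0.8977) did not pass either. The ribosome biogenesis factor gene eIF6, whose product keeps the large subunit from joining the small one, rose in the nucleus by 2.99 (SE 0.21, adjusted p = 2.75e-07).

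**Figure D4:**
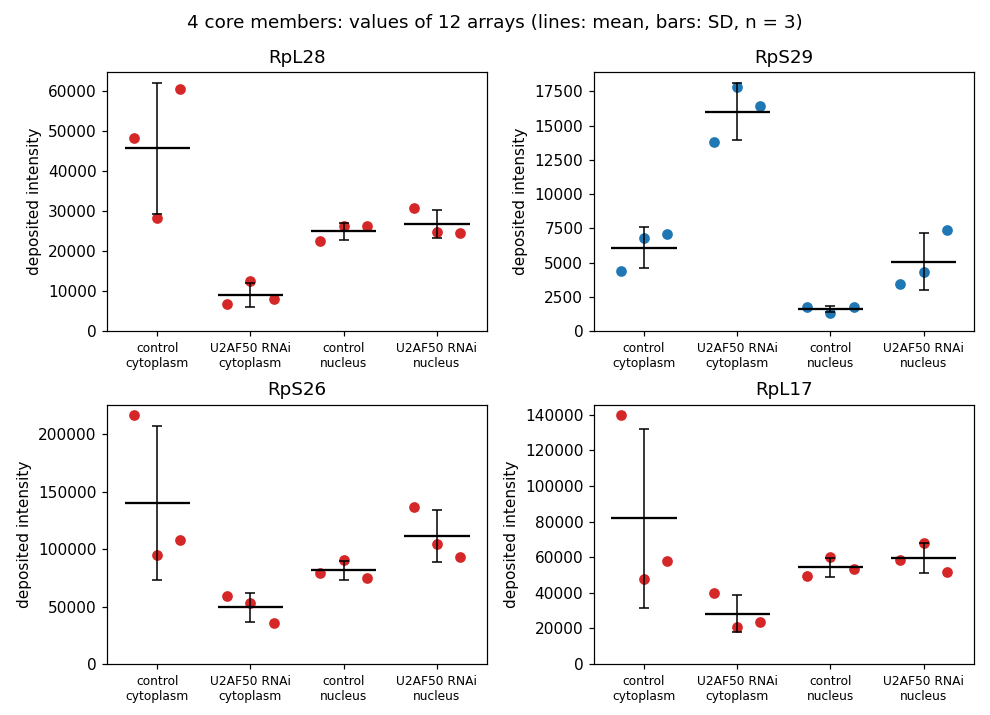
Deposited intensities of RpL28, RpS29, RpS26 and RpL17 on the 12 arrays, with the group mean (line) and SD (bar, n = 3). RpL28 is lowest in the U2AF50 RNAi cytoplasm (6773, 12439 and 8052), and RpS29 is highest there (13789, 17857 and 16433).

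The last comparison asked whether the effect of U2AF50 RNAi differed between the fractions (nucleus minus cytoplasm, the interaction). After quantile normalisation RpL28 was the 1 member that passed. It was 2.34 (SE 0.31, adjusted p = 0.0031), with -2.16 in the cytoplasm and 0.18 in the nucleus. Of all tested probe sets 0.0716% had a higher and 0.0955% a lower interaction. Outside the members, eIF6 of the ribosome biogenesis list passed as well (2.29, SE 0.30, adjusted p = 0.00311). As deposited, RpL28 (2.39, SE 0.35, adjusted p = 0.0090) and RpS26 (1.87, SE 0.39, adjusted p = 0.0486) passed, with 0.119% higher and 0.298% lower of all probe sets. RpS29, which rose in both fractions, had an interaction of 0.04 (SE 0.32, adjusted p = 0.9685, 95% interval -0.63 to 0.71). The comparison in the cytoplasm enters the interaction, so both values of RpL28 share arrays.

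Over the members the interaction median was 0.09 after quantile normalisation, with 21 of 33 values above 0, and 0.81 as deposited, with 32 of 33 above 0. The medians of all tested probe sets were -0.11 and 0.01. Centred on array medians, the members had 0.42 and all probe sets -0.38. Without replicate 1 of the control cytoplasm the deposited member median was 0.55. After RpL28, the largest interactions on the quantile scale were those of RpS26 (0.97, adjusted p = 0.1015) and RpL17 (0.88, adjusted p = 0.2183), and the lowest was that of RpS15 (-0.61, adjusted p = 0.1847).

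**Figure D5:**
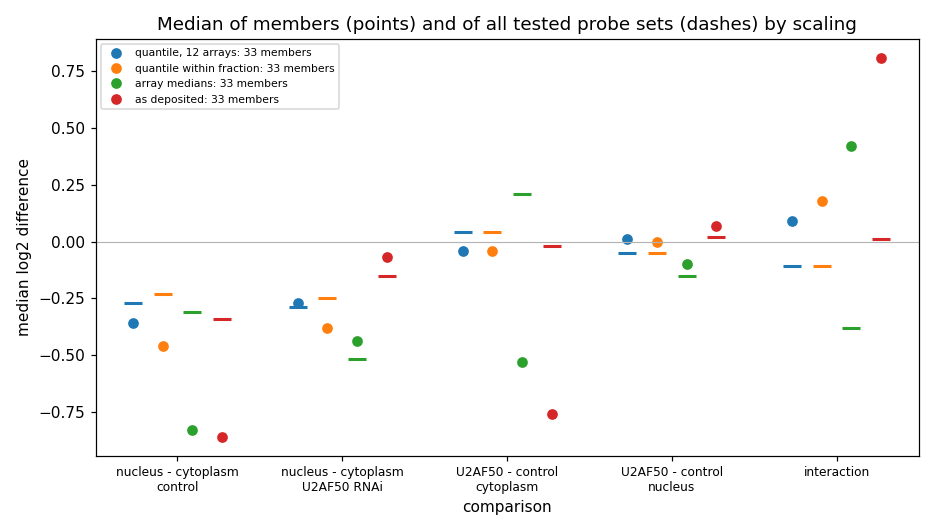
Median log2 difference of the 33 tested members (points) and of all tested probe sets (dashes) in the 5 comparisons under 4 scalings of the arrays. In the cytoplasm the member median is -0.04 after quantile normalisation and -0.76 as deposited, and in the nucleus it stays between -0.10 and 0.07.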

How the data were processed

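The authors deposited linear intensities, with 1 value for every probe set on every array. Read from the values, each column's mean without its lowest and highest 2% is 1000. How images were read and probes summarised is not stated in the labels. After removal of 44 Affymetrix controls, values became log2(intensity + 94.7), where 94.7 is the 20th percentile of all deposited intensities, and arrays were quantile normalised. Probe sets above the 40th percentile of mean signal entered limma (version 3.58.1, R version 4.3.3; lmFit and a trended eBayes prior, 8 residual and 9.0 prior degrees of freedom). Benjamini-Hochberg adjustment ran over all 8379. The number of arrays limits the precision.

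The annotation named 1 gene for 12444 probe sets, more for 327 and no gene for 1239. All 37 members matched current gene names, with 0 changed. The members and lists were chosen with earlier results of these data known. Named were, per comparison, up to 6 members past the threshold in each direction by size, RpL28, RpS29, the stalk and ubiquitin-fusion genes, paralogs and relatives, members beside the filter and up to 4 called genes of each other list. RpS15, RpL36A and RpS30, and values of RpS26 and RpL17 outside their calls, were picked once their values had been seen. The fit was first tested on simulated data.

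Alternatives covered scaling, pseudocount, filter, prior, covariates, a replicate block and single arrays left out. Deposited values without control cytoplasm replicate 1, or with a covariate, were added after seeing the data. Shares of all probe sets called were counted only for quantile normalisation and the deposited scale, with all arrays and no covariate. Counts of members under the other alternatives therefore stand without such a share. Same-numbered arrays of different groups had deviations correlated between -0.09 and 0.14, so the numbers were not taken as pairs.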

Additional observations from a re-analysis of the deposited data

Results flagged for a closer look

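The effect of U2AF50 RNAi on RpL28 differed between the fractions by the interaction term of limma. The interaction was 2.34 (adjusted p = 0.0031), from a log2 change of -2.16 in the cytoplasm and 0.18 in the nucleus. It kept its call in 26 of 28 alternatives, where it lay between 1.38 and 2.62. Groups of 3 arrays are too small for a test of single outlying arrays, and none was made.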

How the results depend on the processing

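The ribosomal protein medians moved with the scaling and with the covariates, and 3 arrays per group limit the precision. The main medians were -0.36 (nucleus against cytoplasm, control), -0.27 (the same, U2AF50 RNAi), -0.04 (treatment, cytoplasm), 0.01 (treatment, nucleus) and 0.09 (interaction). In that order, without the nuclear treatment value except where given, they were -0.86, -0.07, -0.76 and 0.81 as deposited, -0.83, -0.44, -0.53, -0.10 (nucleus) and 0.42 with array medians, and -0.46, -0.38 and 0.18 (interaction) with quantiles within each fraction. With the GAPDH ratio as covariate they were -0.47, -0.46 and 0.04 (cytoplasm), and with the hybridisation controls -0.41 and -0.53. As deposited they were -0.65, -0.07, -0.51 and 0.55 without control cytoplasm replicate 1, -0.94, -0.65, -0.48 and 0.48 with hybridisation controls, and -0.95, -0.57, -0.38 and 0.50 with the GAPDH ratio. Centring on member medians fixes the members' level by construction.

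Members called in the control fractions (main 17) were 25 as deposited, 27 with array medians, 7 with member medians, 29 as deposited with hybridisation controls and 28 with the GAPDH ratio. In the U2AF50 RNAi fractions (main 21) they were 12 as deposited with the GAPDH ratio. In the cytoplasm (main 4) they were 14 as deposited, 11 with array medians, 2 without the intensity trend, with only the 2 groups, or with hybridisation controls on either scale, and 1 with the GAPDH ratio on either scale. In the nucleus (main 2) they were 1 with array medians, without the trend or with only the 2 groups, and 0 with member medians. For the interaction (main 1) they were 2 as deposited, with or without control cytoplasm replicate 1, with array medians and with member medians, and 0 without the trend or as deposited with the GAPDH ratio. RpL39 in the control fractions turned to -0.04 as deposited, -0.02 with array medians, and as deposited to -0.12 with hybridisation controls and -0.13 with the GAPDH ratio. The cause of these changes was not tested.

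Leaving out 1 array gave medians from -0.52 to -0.33, -0.36 to -0.25, -0.15 to 0.03, -0.03 to 0.03 and 0.06 to 0.17, in the order of the comparisons above. Calls ran from 14 to 18, 17 to 21, 2 to 7, 1 to 3 and 1 to 1. In the cytoplasm 2 were called without control cytoplasm replicate 1 or U2AF50 RNAi cytoplasm replicate 3, and 7 without control cytoplasm replicate 2. With the replicate number as a block, calls were 17, 21, 5, 2 and 1 and the medians -0.36, -0.27, -0.04, 0.01 and 0.09.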
